A study of Mus musculus with 14 samples.

Results

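In quadriceps muscle of mice depleted of the histone deacetylase HDAC3, 37 genes each averaged below 1 FPKM and lay below their own level in every wild-type library. They were taken from the 24354 genes of the authors' table by 3 limits: a mean below 1 FPKM in the knockout (KO) libraries, a mean of at least 0.5 FPKM in the wild-type (WT) libraries, and a lowest WT value more than 2 times the highest KO value. FPKM counts fragments per kilobase of transcript, scaled to the size of the library, so levels can be set beside each other across genes. Gamt, a creatine synthesis gene at 0.33, 2.09 and 0 FPKM in KO and 4.57, 5.5 and 6.4 FPKM in WT, met the same limits and was left out. The lower level of the 37 genes in KO is therefore how they were chosen, and their KO and WT values are given as a description, with no test. Not all were near absence in KO: Hmga2-ps1, Raver2, Stab2 and Mfap3l had KO means of 0.942, 0.888, 0.874 and 0.869 FPKM, above the WT means of the lowest of the 37 genes.

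The KO group held HDAC3-knockout male C57BL/6 mice, and the WT group male C57BL/6 mice wild type for HDAC3. Both groups were 4 months old, kept on chow and a light and dark cycle, untreated and at rest, with muscle taken at ZT10, 10 h after lights on. RNA was sequenced in 3 libraries per group, and the labels do not say whether the 3 came from separate animals, so the spread between them may be technical. The sources used here do not say how HDAC3 was depleted, or in which cells of the muscle. Hdac3 itself was at 5.51, 6.29 and 8.16 FPKM in KO and 33.3, 31 and 23.7 FPKM in WT, lower in KO by the authors' deposited table (q = 0.00119). Skeletal muscle markers were abundant in all 6 libraries, with Tnnt3 at 15616 to 18473 FPKM and Myh4 at 7706 to 11251 FPKM. Relative to WT replicate 1, depth read from low genes was 0.66, 0.832 and 0.674 in KO replicates 1 to 3, against 0.831 and 1.02 in WT replicates 2 and 3, so KO replicates 1 and 3 were the shallower libraries.

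HDAC3 is the catalytic subunit of the NCoR and SMRT corepressor complexes, which nuclear receptors and other transcription factors bring to DNA, where removal of acetyl groups from histones keeps genes low. In muscle the complex is known for its part in the daily rhythm of fuel use. The 37 genes mix ion channel subunits, membrane anchors, secreted proteins, transcription factors, enzymes, neutrophil granule genes and noncoding or multicopy transcripts.

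Most of the 37 genes were low in WT as well. The WT mean lay from 0.5 to 1 FPKM in 14 of them, from 1 to 2 FPKM in 11, from 2 to 5 FPKM in 10 and above 5 FPKM in 2, Snora34 and Ngp. In KO, 20 genes had a value above 0 in every library, 4 were listed at 0 in 1 library, 3 in 2 libraries and 10 in all 3 libraries. By library, 14, 12 and 14 of the 37 genes were listed at 0 in KO replicates 1 to 3, and none in any WT library, which the limits already fix. Over all 11921 genes with a WT mean of at least 0.5 FPKM, 1.06%, 0.923% and 1.36% were listed at 0 in the KO libraries, against 0.52%, 0.411% and 0.377% in the WT libraries. Where a KO mean above 0 existed, in 27 genes, the WT mean was 2.65 to 16.2 times the KO mean, with a median of 4.56. In tissue RNA, fewer cells of a type and less RNA per cell cannot be told apart.

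**Figure D1:**
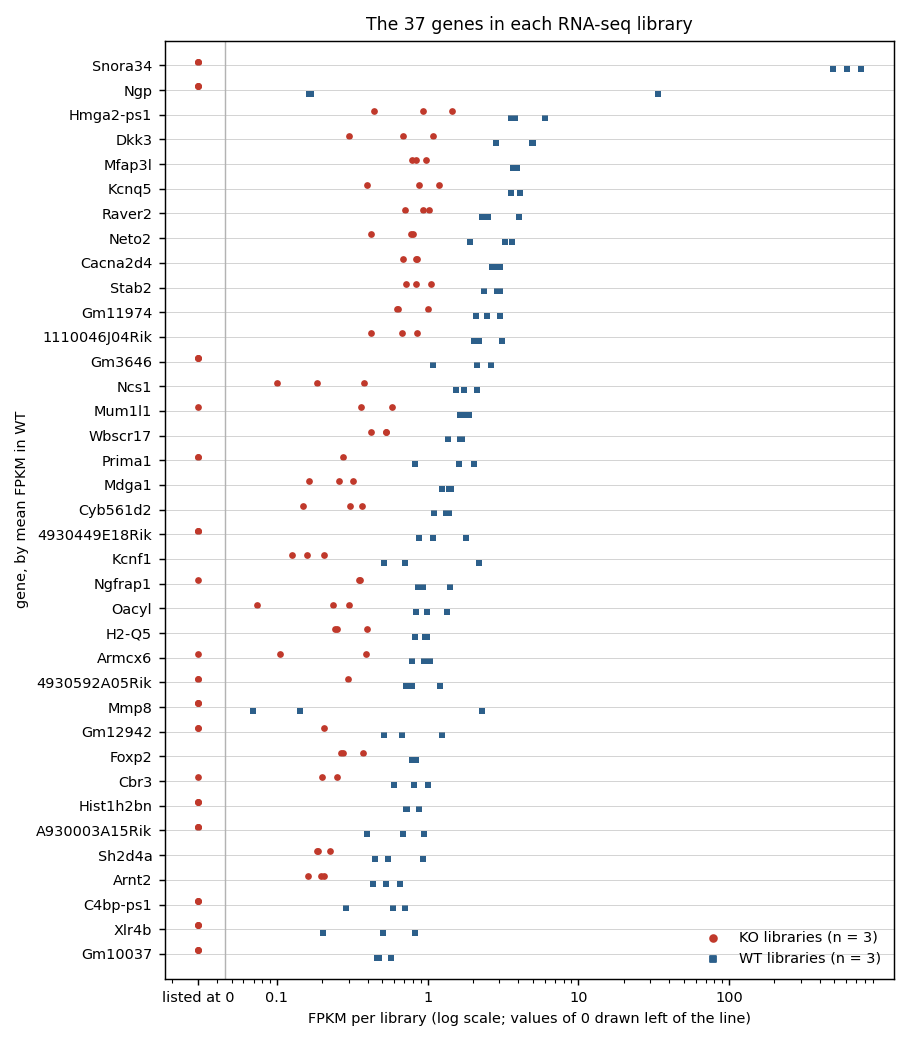
FPKM of the 37 genes in each library, on a logarithmic axis with values of 0 drawn left of the vertical line. Red circles are the 3 KO libraries and blue squares the 3 WT libraries; 10 genes are listed at 0 in all 3 KO libraries, and the WT values of Ngp and Mmp8 spread widest, with WT replicate 2 far to the right.

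The limits were rarely met. Of the 11921 genes with a WT mean of at least 0.5 FPKM, 1455 (12.2%) had every WT library above every KO library, and 58 (0.487%) had the lowest WT value more than 2 times the highest KO value. The same limits turned round, with WT low and KO higher, were met by 23 genes. The authors tested 13 of the 37 genes and called 7 of them lower in KO at a q below 0.05 (Ngp, Dkk3, Mfap3l, Kcnq5, Neto2, Cacna2d4 and Stab2), each at q = 0.00119 in the authors' deposited table. Over all 9204 tested genes 4.94% were called lower in KO, and since the genes were chosen on this contrast nothing is read from the comparison. The other 6 tested genes (Snora34, Hmga2-ps1, Raver2, Gm11974, 1110046J04Rik and Gm3646) had q from 0.117 to 0.68 in that table, and 24 genes were not tested there.

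**Figure D2:**
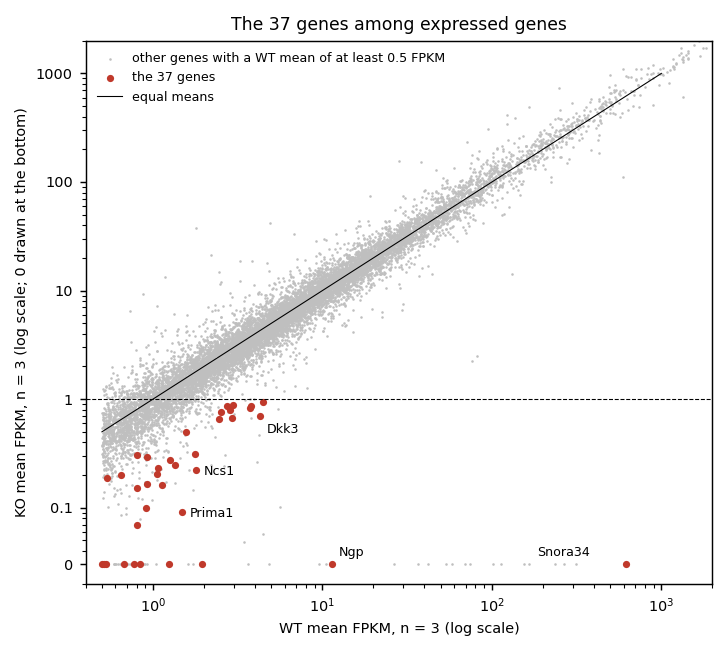
KO mean against WT mean in FPKM for the 11921 genes with a WT mean of at least 0.5 FPKM, both axes logarithmic and KO means of 0 drawn at the bottom. Red points are the 37 genes, grey points the other genes; the red points lie under the dashed line at a KO mean of 1 FPKM, and all but Ngp and Snora34 lie below 5 FPKM in WT.

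Ion channel subunits and proteins of excitable membranes made up 7 of the 37 genes. Kcnq5 encodes a subunit of voltage-gated potassium channels of the M-current type, and had 0.394, 0.875 and 1.19 FPKM in KO replicates 1 to 3, against 3.58, 4.08 and 3.55 FPKM in WT. Its lowest KO value was in replicate 1, and without that library it no longer met the limits, its mean over the other 2 KO libraries being above 1 FPKM. Cacna2d4, an auxiliary alpha2delta subunit of voltage-gated calcium channels known mainly from the retina, had 0.688, 0.854 and 0.843 FPKM in KO, against 2.9, 2.67 and 3.03 FPKM in WT. The 3 libraries of each group lay close together, with an SD of 0.0926 FPKM in KO and 0.186 FPKM in WT. Neto2, an auxiliary subunit of kainate-type glutamate receptors, had 0.797, 0.422 and 0.781 FPKM in KO, against 1.9, 3.27 and 3.64 FPKM in WT. KO replicate 2 and WT replicate 1 were the lowest libraries of their groups. Kcnf1, a silent subunit that modifies other potassium channels, was at 0.163 ± 0.0407 FPKM in KO and 1.14 ± 0.916 FPKM in WT (SD, n = 3 each). Its WT mean rested largely on replicate 1, at 2.19 FPKM against 0.71 and 0.51 FPKM in the others, and without that library the ratio of means was 3.74 in place of 6.97.

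Prima1 encodes the membrane anchor of cholinesterase tetramers and had the widest ratio of means of the 27 genes, 16.2. It was listed at 0, 0.276 and 0 FPKM in KO, against 1.61, 0.83 and 2.03 FPKM in WT. Its only KO value above 0 was in replicate 2, the deepest KO library. Ncs1, a calcium sensor protein of neurons, had a mean of 0.221 ± 0.142 FPKM in KO and 1.8 ± 0.293 FPKM in WT, a ratio of 8.16, or 12.6 without KO replicate 1. Mdga1, a membrane-bound immunoglobulin-domain protein that binds neuroligins at synapses, averaged 0.248 ± 0.0791 FPKM in KO and 1.35 ± 0.0904 FPKM in WT (SD, n = 3 each). Of the 37 genes, Foxp2, Mfap3l, Cacna2d4, Mdga1, Mum1l1 and Kcnq5 varied least among WT libraries, with coefficients of variation of 3.46%, 3.79%, 6.49%, 6.68%, 6.74% and 7.91%.

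Relatives of these subunits did not share one direction. Cacna2d1, the abundant alpha2delta subunit of muscle, was at 97.3 ± 13.3 FPKM in KO and 92.2 ± 5.91 FPKM in WT and was not called (q = 0.843 in the authors' deposited table). Kcng4, another silent potassium channel subunit, fell to 4.13 ± 2.26 FPKM in KO, against 15.2 ± 1.15 FPKM in WT (q = 0.00119). Around Prima1, Colq, which anchors acetylcholinesterase in the basal lamina of the neuromuscular junction, rose to 1.99 ± 0.306 FPKM in KO, against 0.988 ± 0.19 FPKM in WT (q = 0.0337). Bche, butyrylcholinesterase, fell to 1.19 ± 0.18 FPKM in KO, against 2.41 ± 0.135 FPKM in WT (q = 0.00119), and Ache was at 5.03 ± 2.1 FPKM in KO and 7.21 ± 2.17 FPKM in WT without a call (q = 0.114). The 2 anchors of cholinesterases thus lay on opposite sides, with Prima1 lower and Colq higher in KO.

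**Figure D3:**
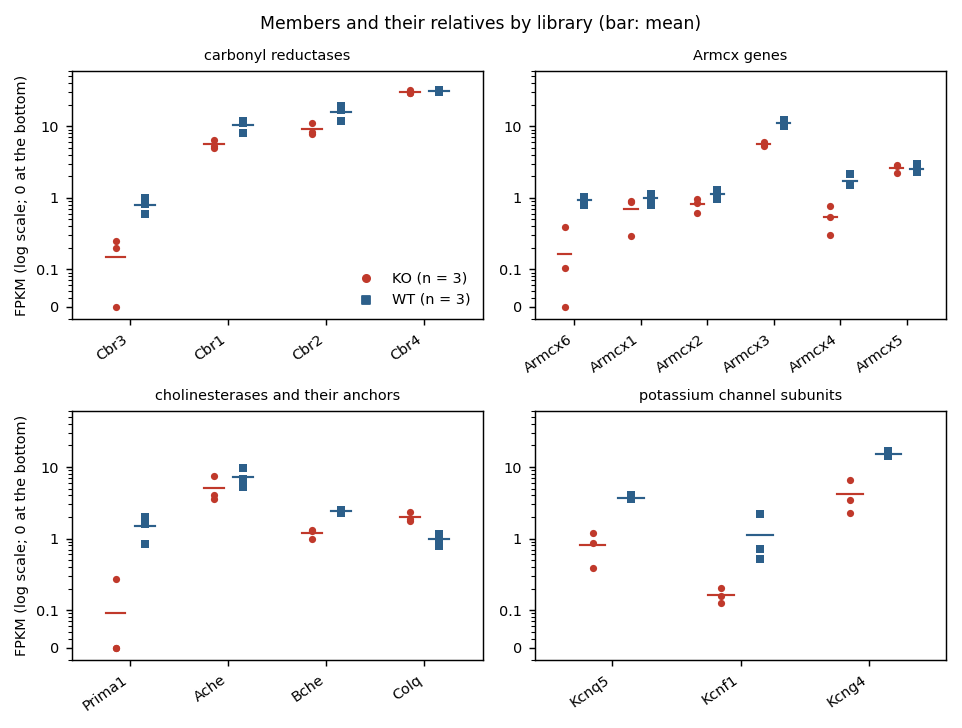
FPKM by library for 5 of the 37 genes and their relatives, on a logarithmic axis with 0 at the bottom. Red circles are KO and blue squares WT libraries (3 each), bars are means; Cbr3, Armcx6, Prima1, Kcnq5 and Kcnf1 lie lower in KO, Colq higher, and Cbr4 and Armcx5 overlap between the groups.

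Of 18 genes listed as muscle ion channels and transporters, 15 were tested, of which 3 rose, 2 fell and 10 were not called. The risen genes were the calcium channel subunit gene Cacng1 (146 ± 3.82 FPKM in KO, 93.5 ± 28 FPKM in WT), the inward rectifier gene Kcnj2 (55.9 ± 7.87 FPKM in KO and 35.8 ± 2.55 FPKM in WT) and Kcnc4 (38.8 ± 3.72 FPKM in KO and 23.6 ± 4.08 FPKM in WT). Beside Kcnq5, Kcnc1 fell to 9.64 ± 1.79 FPKM in KO, against 15.3 ± 3.18 FPKM in WT. Of 18 neuromuscular junction and denervation genes, 12 were tested, of which 4 rose and 2 fell. Beside Colq, the acetylcholine receptor genes Chrna1 and Chrne rose to 3.02 ± 0.61 and 8.52 ± 1.25 FPKM in KO, against 1.83 ± 0.114 and 4.59 ± 0.854 FPKM in WT, and Etv5 to 5.38 ± 0.679 FPKM in KO against 3.29 ± 0.118 FPKM in WT. Musk, the receptor kinase of the junction, and Chrnb1 fell to 3.29 ± 0.634 and 7.64 ± 0.654 FPKM in KO, against 6.5 ± 0.578 and 13.5 ± 2.24 FPKM in WT. Over all tested genes 5.90% rose and 4.94% fell, with a median log2 difference of 0.01, against medians of 0.16 for the channel list and 0.04 for the junction list. Of the genes named here, limma did not call Cacng1, Kcnc1, Chrna1 or Colq. The summed level of 18 Schwann cell and nerve markers was 25.5 to 27.4 FPKM in KO and 26.8 to 31.7 FPKM in WT. Gfap, Nefl, Nefm, Chat and Gap43 were listed at 0 in every library. Of the 3 nerve markers that were tested, 0 were called. At an unadjusted p below 0.05 there were 0 as well, by limma and in the authors' deposited table.

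The promoters of Neto2, Kcnf1 and Prima1 are shown because they differ in CpG content and in the motifs they hold. RefSeq sequence (GRCm38.p6) runs from 250 bases before to 50 bases after each gene's start and is written along the gene's own strand, here the minus strand of chr8:85690960-85691259, chr12:17176839-17177138 and chr12:103242097-103242396. Capitals mark the nuclear receptor half-site AGGTCA or its reverse complement TGACCT, and in Prima1 also the E-box CAGCTG. Neto2 holds 0 CpG dinucleotides, Kcnf1 3 and Prima1 33, and the Ncs1 promoter, not printed, holds 40.
Neto2: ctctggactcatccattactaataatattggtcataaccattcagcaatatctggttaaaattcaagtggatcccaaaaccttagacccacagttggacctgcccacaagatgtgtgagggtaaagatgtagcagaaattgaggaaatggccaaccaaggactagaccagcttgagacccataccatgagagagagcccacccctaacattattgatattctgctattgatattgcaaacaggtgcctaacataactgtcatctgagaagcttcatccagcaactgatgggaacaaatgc
Kcnf1: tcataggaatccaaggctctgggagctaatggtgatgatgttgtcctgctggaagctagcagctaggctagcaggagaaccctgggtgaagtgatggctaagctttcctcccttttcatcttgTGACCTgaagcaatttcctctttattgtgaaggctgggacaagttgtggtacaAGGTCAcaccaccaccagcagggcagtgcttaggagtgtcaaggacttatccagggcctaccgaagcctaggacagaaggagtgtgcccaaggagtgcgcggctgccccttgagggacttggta
Prima1: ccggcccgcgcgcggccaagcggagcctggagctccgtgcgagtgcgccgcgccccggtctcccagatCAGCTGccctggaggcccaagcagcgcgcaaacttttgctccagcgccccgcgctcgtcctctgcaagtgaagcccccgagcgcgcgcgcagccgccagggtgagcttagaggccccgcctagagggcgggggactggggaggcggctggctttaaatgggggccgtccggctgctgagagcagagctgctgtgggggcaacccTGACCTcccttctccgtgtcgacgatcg

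Of the secreted and surface proteins, Dkk3, a secreted glycoprotein of the Dickkopf family, had 0.689, 1.09 and 0.3 FPKM in KO, against 4.95, 2.86 and 5 FPKM in WT. KO replicate 2 was the highest KO library and WT replicate 2 the lowest WT library, which leaves a factor of 2.61 between them. Dkk2, of the same family, was untested at 0.752 ± 0.187 FPKM in KO and 1.63 ± 0.366 FPKM in WT, and Dkk1 and Dkkl1 were listed at 0 in every library. Mfap3l, a membrane protein related to the microfibril-associated protein Mfap3, had 0.841, 0.791 and 0.976 FPKM in KO, against 3.95, 3.83 and 3.66 FPKM in WT. Mfap3 itself was at 4.53 ± 0.598 FPKM in KO and 4.54 ± 0.459 FPKM in WT (q = 0.99 in the authors' deposited table).

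Stab2, a scavenger receptor for hyaluronan best known from sinusoidal endothelium, had 1.06, 0.844 and 0.714 FPKM in KO, against 2.35, 2.87 and 3.03 FPKM in WT. Stab1, its paralogue, was at 1.96 ± 0.431 FPKM in KO and 2.24 ± 0.311 FPKM in WT (q = 0.63 in the authors' deposited table). Of 14 endothelial markers, all tested, 0 were called, and 0 had an unadjusted p below 0.05 in the authors' deposited table or by limma. Their summed level was 154 to 167 FPKM in KO and 155 to 169 FPKM in WT, and no marker was listed at 0 in every library. The Stab2 promoter (chr10:87007893-87008192, minus strand, RefSeq GRCm38.p6) holds the half-site AGGTCA at both places in capitals and 4 CpG dinucleotides, and is shown because it combines a repeated half-site with few CpG.
Stab2: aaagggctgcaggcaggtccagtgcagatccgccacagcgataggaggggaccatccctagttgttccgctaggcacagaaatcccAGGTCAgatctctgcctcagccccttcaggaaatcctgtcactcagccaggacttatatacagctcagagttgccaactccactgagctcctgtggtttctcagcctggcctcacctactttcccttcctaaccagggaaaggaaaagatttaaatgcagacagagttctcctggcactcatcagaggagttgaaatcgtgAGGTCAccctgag

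Several of the genes act in transcription and RNA handling. Foxp2, a forkhead transcription factor, had a mean of 0.305 ± 0.0587 FPKM in KO and 0.808 ± 0.028 FPKM in WT, the narrowest ratio of means at 2.65. Foxp1, its abundant relative, was at 2.05 ± 0.298 FPKM in KO and 2.14 ± 0.113 FPKM in WT (q = 0.91 in the authors' deposited table). Arnt2, a partner subunit of basic helix-loop-helix PAS factors, was at 0.187 ± 0.0233 FPKM in KO and 0.539 ± 0.109 FPKM in WT, while its relative Arnt was not called (7.86 ± 0.24 FPKM in KO, 7.33 ± 0.343 FPKM in WT, q = 0.805). Arntl, which encodes the clock factor BMAL1, was higher in KO at 11.8 ± 1.7 FPKM, against 5.21 ± 0.91 FPKM in WT (q = 0.00119). Raver2, an RNA-binding protein that works with the splicing repressor PTB, had 1.02, 0.708 and 0.936 FPKM in KO, against 2.31, 2.53 and 4.04 FPKM in WT, and Raver1 was at 2.78 ± 0.797 FPKM in KO and 2.8 ± 0.796 FPKM in WT. Mum1l1, a PWWP-domain protein now named Pwwp3b, was listed at 0.364, 0.577 and 0 FPKM in KO, against 1.64, 1.88 and 1.76 FPKM in WT. Its ratio of means was 5.61, or 9.69 without KO replicate 2.

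Enzymes and adaptors made up a further group of low genes. Cbr3, an NADPH-dependent carbonyl reductase, was at 0.151 ± 0.133 FPKM in KO and 0.806 ± 0.199 FPKM in WT, with 0 in KO replicate 3 and a ratio of 5.34, or 8.05 without KO replicate 1. Its neighbour and relative Cbr1 fell to 5.6 ± 0.813 FPKM in KO, against 10.3 ± 1.93 FPKM in WT (q = 0.0144 in the authors' deposited table), and Cbr2 to 9.12 ± 1.75 FPKM in KO against 16 ± 3.89 FPKM in WT (q = 0.00866). Cbr4 was at 30.3 ± 2.03 FPKM in KO and 31.4 ± 0.943 FPKM in WT and was not called (q = 0.921). Wbscr17, now Galnt17, of the family that starts mucin-type sugar chains, was at 0.494 ± 0.062 FPKM in KO and 1.56 ± 0.177 FPKM in WT. None of its 18 relatives was called among the 4 that were tested (Galnt1, Galnt2, Galnt11 and Galnt15), with q from 0.423 to 0.89 in the authors' deposited table. Cyb561d2, a cytochrome b561 relative that passes electrons across membranes, averaged 0.274 ± 0.111 FPKM in KO and 1.27 ± 0.152 FPKM in WT, and Oacyl, named for its likeness to O-acyltransferases, 0.203 ± 0.117 FPKM in KO and 1.06 ± 0.268 FPKM in WT.

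Sh2d4a, an adaptor with an SH2 domain, had 0.188, 0.224 and 0.185 FPKM in KO, against 0.933, 0.449 and 0.548 FPKM in WT. Ngfrap1, now Bex3, which associates with the p75 neurotrophin receptor, was listed at 0.355, 0 and 0.348 FPKM in KO, against 0.937, 1.41 and 0.86 FPKM in WT. Bex1, its tested relative, fell to 1.78 ± 1.04 FPKM in KO, against 4.76 ± 1.8 FPKM in WT (q = 0.0443 in the authors' deposited table). Armcx6, of the X-linked armadillo-repeat family, was listed at 0, 0.105 and 0.388 FPKM in KO, against 0.785, 0.945 and 1.03 FPKM in WT. Among ratios that kept a KO mean above 0, its ratio of means moved most with single libraries. It went from 5.59 over all libraries to 17.5 without KO replicate 3 and 3.72 without KO replicate 1. In the same X-linked cluster Armcx3 fell to 5.63 ± 0.378 FPKM in KO, against 11.2 ± 1.06 FPKM in WT (q = 0.00119), Armcx5 was at 2.62 ± 0.342 FPKM in KO and 2.57 ± 0.358 FPKM in WT (q = 0.98), and Armcx4 was untested at 0.542 ± 0.237 FPKM in KO and 1.74 ± 0.354 FPKM in WT. Over all 20 families, 29 of 77 relatives were tested, of which 2 rose and 10 fell (6.90% and 34.5%, against 5.90% and 4.94% of all tested genes). The families were put together after the values were seen, and 4 of the 10 fallen relatives are neutrophil granule genes. Limma called 4 of these 12 relatives, Arntl, Kcng4, Armcx3 and Cbr1, and not Colq, Bche, Bex1 or Cbr2.

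Neutrophil granule genes stood apart from the rest because 1 WT library carried them. Ngp, neutrophilic granule protein, was listed at 0 FPKM in all 3 KO libraries, against 0.168, 33.9 and 0.164 FPKM in WT. Mmp8, neutrophil collagenase, was likewise at 0 in all KO libraries, against 0.142, 2.3 and 0.0695 FPKM in WT. WT replicate 2 exceeded the lowest WT library by a factor of 206 for Ngp and 33.2 for Mmp8, and without that library neither gene met the limits. Of 14 neutrophil markers, 7 were tested, and S100a8, S100a9, Ngp, Camp and Retnlg were called lower in KO in the authors' deposited table. Limma called 0 of the 7, and 0 had an unadjusted p below 0.05 by limma. The summed level of the 14 markers was 9.22, 6.16 and 5 FPKM in KO replicates 1 to 3, against 7.81, 577 and 12.9 FPKM in WT replicates 1 to 3. S100a8 alone was at 2.7, 2.15 and 2.65 FPKM in KO, against 1.79, 240 and 4.37 FPKM in WT, so WT replicates 1 and 3 lay near the KO libraries. The WT mean of S100a9 was 34.3 times its KO mean, or 1.82 times without WT replicate 2 and 76.3 times without KO replicate 1.

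**Figure D4:**
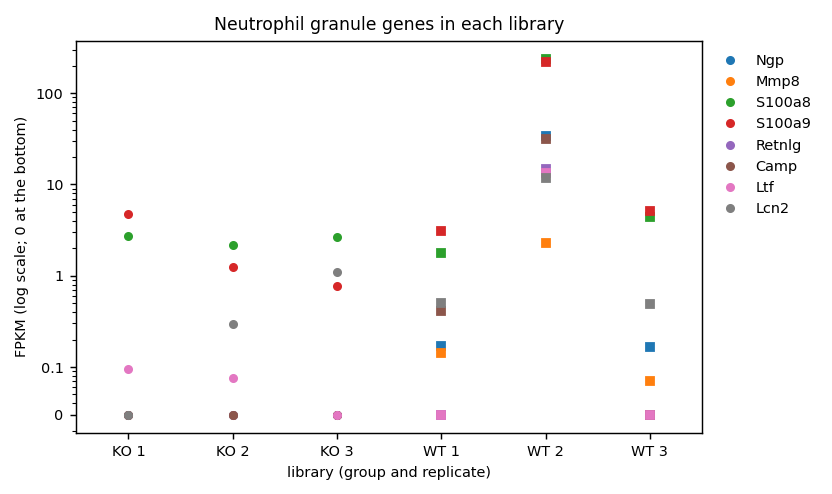
FPKM of 8 neutrophil granule genes in each library, on a logarithmic axis with 0 at the bottom; circles are KO and squares WT libraries, and colours name the gene. All 8 genes are highest in WT replicate 2, while WT replicates 1 and 3 hold levels near those of the KO libraries.

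Several of the noncoding, pseudogene and multicopy transcripts were among the least firmly measured. Snora34, a small nucleolar RNA that guides pseudouridylation and lies within Kansl2, was listed at 0 FPKM in all KO libraries, against 755, 606 and 493 FPKM in WT. Its host Kansl2 was at 21.7, 19.9 and 22 FPKM in KO and 19.5, 17.3 and 22.7 FPKM in WT (q = 0.791 in the authors' deposited table). Mir1291, whose span overlaps Snora34, was above 0 in KO replicate 3 alone, at 0, 0 and 413 FPKM in KO and 0 in every WT library. How many fragments stand behind that single value was not read, so it does not show an opposite change. Mir1291 was untested, and whether the 2 entries share reads was not tested. Gm11974, the small nucleolar RNA host gene now named Snhg15, had 0.637, 1.01 and 0.624 FPKM in KO, against 2.1, 3.03 and 2.47 FPKM in WT. Hmga2-ps1, a transcribed pseudogene of the chromatin protein gene Hmga2, had 0.928, 0.442 and 1.45 FPKM in KO, against 6.01, 3.83 and 3.6 FPKM in WT. Hmga2 itself was at 0.0397 ± 0.0687 FPKM in KO and 0.0952 ± 0.0559 FPKM in WT. The long noncoding RNA 1110046J04Rik had 0.855, 0.678 and 0.419 FPKM in KO, against 3.1, 2.04 and 2.21 FPKM in WT. It overlaps Serpinb6a, a protease inhibitor gene that fell to 113, 75.4 and 110 FPKM in KO, against 226, 249 and 198 FPKM in WT (q = 0.00119), and since strandedness is not given the reads of overlapping genes cannot be told apart.

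The remaining genes listed at 0 in all 3 KO libraries were Gm3646, 4930449E18Rik, Hist1h2bn, A930003A15Rik, C4bp-ps1, Xlr4b and Gm10037. Gm3646, a coding gene with no role given here, had 1.09, 2.63 and 2.14 FPKM in WT, and the long noncoding RNA 4930449E18Rik 1.8, 1.08 and 0.879 FPKM. Hist1h2bn, a replication-dependent histone H2B gene, had 0.733, 0.881 and 0.718 FPKM in WT, and the long noncoding RNA A930003A15Rik 0.395, 0.95 and 0.683 FPKM. The pseudogene C4bp-ps1 had 0.588, 0.708 and 0.288 FPKM in WT, Xlr4b of the X-linked lymphocyte-regulated family 0.506, 0.203 and 0.826 FPKM, and Gm10037 0.474, 0.571 and 0.465 FPKM. Of the rest, the class I histocompatibility pseudogene H2-Q5 was at 0.296 ± 0.0859 FPKM in KO and 0.925 ± 0.0904 FPKM in WT, and the long noncoding RNA 4930592A05Rik at 0.0992 ± 0.172 FPKM in KO and 0.904 ± 0.261 FPKM in WT. Gm12942, the membrane protein gene now named Tmem35b, was listed at 0, 0.206 and 0 FPKM in KO, against 0.515, 1.24 and 0.673 FPKM in WT, a ratio of means of 11.8 that became 7.84 without KO replicate 1 or without KO replicate 3. Histone, Xlr, H2-Q and pseudogene copies resemble one another, and the sources used here do not say how the authors' counting shared reads between copies.

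How many fragments stand behind these values was read from the values themselves. FPKM of a low gene are whole multiples of 1 smallest step once each library's depth is divided out, and 35 of the 37 genes gave 6 whole numbers within 0.02 of a step (36 within 0.1). If whole fragments were counted, a step is at least 1 fragment. Summed over 3 libraries, the 35 genes had a median of 5 steps in KO and 36 steps in WT, up to 94 steps in KO and 390 in WT, both in Stab2. In WT, 7 genes rested on 10 or fewer steps, 11 genes on 11 to 50 and 17 genes on more than 50. All 7 genes with 10 or fewer WT steps were listed at 0 in every KO library: Snora34 with 7 steps, Gm3646 and C4bp-ps1 with 5 each, 4930449E18Rik with 4, Hist1h2bn and Gm10037 with 3 each and Xlr4b with 9. A single step was worth 252 FPKM in Snora34, whose annotated span is 118 bases, so its high FPKM came from 3, 2 and 2 steps.

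A listed 0 in KO bounds the level only as far as depth allows. If a step is 1 fragment, the limit that a count of 0 leaves is 3 steps over the KO group. It is then 1.01 FPKM for Hist1h2bn and 0.657 FPKM for Gm10037, above their WT means of 0.777 and 0.503 FPKM. On that reading a difference was not detectable at this depth for these 2 genes. With more fragments per step the limit would be lower. For the other 8 genes listed at 0 throughout KO, the WT mean lay above that limit, narrowly for 4930449E18Rik (1.24 FPKM against a WT mean of 1.25 FPKM). For Ngp the limit was 0.232 FPKM, above WT replicates 1 and 3 (0.168 and 0.164 FPKM), so its WT mean passed it through replicate 2 alone. These limits cover counting error of the KO libraries only and take the WT mean as exact. The WT mean rested on 9 steps in Xlr4b, 7 in Snora34, 5 in Gm3646 and C4bp-ps1 and 4 in 4930449E18Rik. Lying above the limit therefore does not settle a difference for them. KO replicate 2 and WT replicate 2 had nearly equal depth, 0.832 and 0.831 of WT replicate 1, and there Ncs1 had 2 steps in KO and 35 in WT, Kcnf1 3 in KO and 17 in WT, and Dkk3 18 in KO and 47 in WT. Of the 35 genes, 24 had 3 or fewer steps in KO replicate 2. The 3 widest ratios of means (Prima1, Gm12942 and 4930592A05Rik) rested on 1 KO step each, while the next, Ncs1 at 8.16 and Kcnf1 at 6.97, rested on 11 and 10 KO steps. Of the genes with 1 or 2 KO steps, Prima1, with 1 step in KO and 19 in WT, had a ratio per depth of 14.4 with an exact 95% interval from 2.29 to 600, 4930592A05Rik and Gm12942, each with 1 step in KO and 13 in WT, 9.88 (1.48 to 420), and Cbr3, with 2 steps in KO and 14 in WT, 5.32 (1.22 to 48.2), if a step is 1 fragment. These intervals cover counting error only and are no test, since the same values chose the genes. The number of steps was uncertain for A930003A15Rik and Stab2, with 62 and 390 WT steps at the tolerance of 0.02 and 19 and 33 at 0.1.

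**Figure D5:**
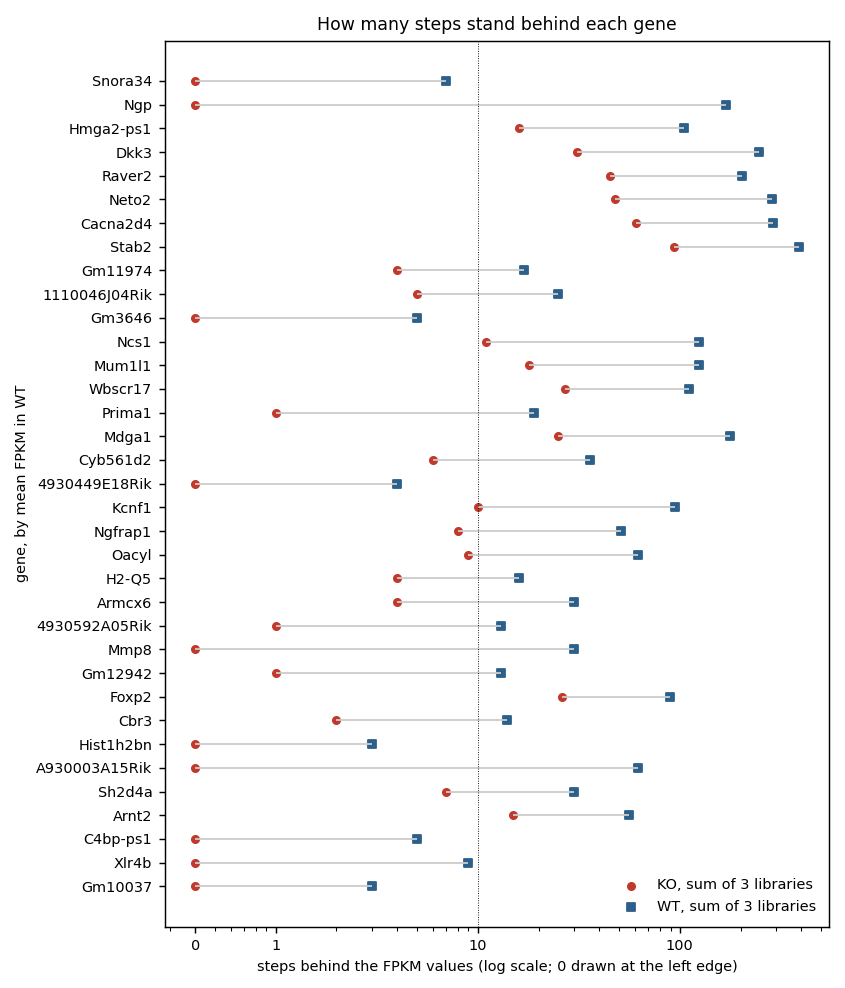
Smallest steps behind the FPKM values of the 35 genes with a whole-number solution, summed over 3 KO libraries (red circles) and 3 WT libraries (blue squares), on a logarithmic axis with 0 at the left edge. The dotted line marks 10 steps; the 7 genes whose WT square lies left of it have their KO circle at 0.

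Values close to each limit show how little separates the 37 genes from the next ones. Nearest inside the KO limit were Hmga2-ps1, Raver2 and Stab2, with KO means of 0.942, 0.888 and 0.874 FPKM. Nearest outside it were Adgrl1 (1.01 FPKM in KO, 3.95 FPKM in WT), Slc2a3 (1.11 FPKM in KO, 3.35 FPKM in WT) and Map3k7cl (1.19 FPKM in KO, 5.96 FPKM in WT). Nearest inside the WT limit were Gm10037, Xlr4b and C4bp-ps1, with WT means of 0.503, 0.512 and 0.528 FPKM, and nearest outside it A930006K02Rik, Tmem132b and Cd14, with 0.485, 0.46 and 0.458 FPKM. Tmem132b had 0.031, 0.0246 and 0 FPKM in KO, against 0.594, 0.345 and 0.442 FPKM in WT, so its lowest WT value was 11.1 times its highest KO value. On the ratio of the lowest WT to the highest KO value, Armcx6 and Gm11974 stood just inside at 2.02 and 2.08, Sh2d4a still nearer to 2, and Eva1a, C1qtnf2 and Armcx4 just outside at 1.99, 1.98 and 1.96. The ratio alone kept 1548 further genes out, the WT limit alone 95 and the KO limit alone 20.

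What the 37 genes shared beyond the limits was examined in the RefSeq annotation, in which all 37 were found, 6 of them under a newer name. Protein-coding genes made up 28 (75.7%), against 95.5% of the genes with a WT mean of at least 0.5 FPKM. Long noncoding RNAs were 5 (13.5%, against 5.57% of the 5758 genes with a WT mean from 0.5 to under 5 FPKM) and transcribed pseudogenes 3 (8.11% against 1.01%). The genes lay on 18 chromosomes, with 4 on the X chromosome (Xlr4b, Mum1l1, Ngfrap1 and Armcx6), or 10.8% against 3.81% of the 5758 genes. The 28 coding genes were longer than the coding genes of like level, with a median span of 43.7 kb against 25.5 kb, and 6 spanned over 100 kb (21.4% against 15.8%). The longest were Kcnq5 at 564252 bases and Foxp2 at 540629 bases. Of the 23 genes that met the limits turned round, 4 (17.4%) were long noncoding RNAs, 0 were transcribed pseudogenes and 0 lay on the X chromosome. All these shares are descriptions of small sets chosen on low values, and no test was made of them.

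Next to the 37 genes in RefSeq order lay 74 neighbours, none of them among the 37. Of 35 tested neighbours, 5 fell (14.3%, against 4.94% of all tested genes) and 2 rose (5.71%, against 5.90%). The fallen neighbours were Serpinb6a beside 1110046J04Rik, Armcx3 beside Armcx6, Cbr1 beside Cbr3, Lrtm2 beside Cacna2d4 and Mdfic beside Foxp2. Lrtm2, a gene that overlaps Cacna2d4, was at 1.21, 1.55 and 1.62 FPKM in KO, against 2.49, 2.63 and 5.5 FPKM in WT, and Mdfic at 2.31, 2.25 and 2.27 FPKM in KO, against 4.19, 4.21 and 3.24 FPKM in WT. The risen neighbours were Dnaja2 beside Neto2, at 118, 113 and 106 FPKM in KO and 87.3, 78.7 and 77.3 FPKM in WT, and Zfand3 beside Mdga1, at 37.9, 42.8 and 39.3 FPKM in KO and 22.1, 24.2 and 36.3 FPKM in WT. Other neighbours stayed uncalled beside strongly lower genes, such as Usp47 and Mical2 on either side of Dkk3. Limma did not call Lrtm2, Mdfic or Zfand3. In 9 of the 37 genes a neighbour's span overlapped the gene, 3 of them (Serpinb6a, Armcx3 and Lrtm2) fallen. Reads of overlapping genes cannot be told apart, and Armcx3 and Cbr1 are also counted among the relatives. The share of fallen neighbours may therefore not be independent of how the 37 genes were chosen.

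Promoters of 26 of the 37 genes were in the RefSeq table. Their median held 15 CpG dinucleotides per 300 bases, against 19 in the 4521 promoters of genes with a WT mean from 0.5 to under 5 FPKM. In 9 of the 26 (34.6%) there were 5 or fewer CpG, against 12.9% of those 4521 promoters. The 9 were Neto2, Gm3646, A930003A15Rik, Hist1h2bn, Kcnf1, Kcnq5, Ngp, Mmp8 and Stab2, of which Neto2, Kcnf1 and Stab2 are printed above. The half-site AGGTCA, read on both strands, was in 4 of 26 promoters (15.4%; Cyb561d2, Stab2, Kcnf1 and Prima1), against 12% of 9457 promoters of genes with a WT mean of at least 0.5 FPKM and 16% of all 27025 promoters. The E-box CAGCTG was in 6 of 26 (23.1% against 15.3% and 16.1%), and the E-box CACGTG in 3 (11.5% against 10.7% and 7.24%). The MEF2-type motif CTANNNNTAG and the cyclic AMP response element TGACGTCA were each in 2 (7.69%, against 3.09% and 3.7% for the MEF2-type motif and 3.34% and 1.88% for the response element). Every motif was read on both strands, and none of the 5 motifs contains another. A match here is only a match of letters.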

How the data were processed

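Gene expression came from 1 table of the whole series that holds an FPKM value for each of 6 RNA-seq libraries, for which the submitters' processing notes name TopHat2, Cuffdiff and the mm9 build as used by the authors. Their versions, annotation, strandedness and scaling of libraries were not given in the sources used here. Each gene of the deposited table also carries a p-value and a q-value for KO against WT. Genes with a deposited p-value under 1 were taken as tested (9204 of 24354), and a call is a deposited q-value under 0.05. The 8 ChIP-seq, input and GRO-seq samples were not analysed here: the HDAC3 peak lists are on mm9, and the gene positions used here are those of GRCm38.p6.

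The members and the 17 gene lists were chosen with earlier results of these data known, and some genes of the lists are not reported here and not counted. Values in every library are given for the 12 genes with the highest WT mean, for genes listed at 0 in all 3 KO libraries, for genes with a deposited q-value under 0.05 and for the 3 genes nearest each side of each limit; of other genes, called members of the lists are named. Further per-library values, relatives and neighbours were added after values were seen. Relative depth came from genes under 0.3 FPKM, and steps are the smallest whole numbers that fit all 6 values within 0.02, a tolerance added after the data were seen (planned: 0.1 and 0.05). FPKM gives no read depth, so intervals are given for steps only. Limma (version 3.58.1, R 4.3.3) on log2(FPKM + 1) with its trend option, two-sided with Benjamini-Hochberg adjustment, was an alternative and was tested on simulated data. That scale understates changes of low genes. Other alternatives changed each limit, rescaled the libraries or left out a library. Tables were joined in Python 3.11.15.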

Additional observations from a re-analysis of the deposited data

How the results depend on the processing

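The limits decide how many genes qualify. Beside the 37 genes, 23 qualified with a WT mean of at least 1 FPKM, 81 with a ratio of the lowest WT to the highest KO value above 1.5, 16 with that ratio above 3, and 311 when only the means had to differ by more than 2 times. A KO limit of 0.5 or 2 FPKM, a WT limit of 0.3 FPKM or equal upper quartiles gave 27, 44, 50 and 43 genes. Leaving out 1 library gave 54 to 90 genes, and 28 of the 37 qualified each time. It can only raise the lowest WT value or lower the highest KO value, so none of the 37 could fail the ratio limit. Only the limits on means could lose a gene, so the 28 are no measure of robustness. Kcnq5 was lost without KO replicate 1, Hmga2-ps1 without KO replicate 2, C4bp-ps1 and Sh2d4a without WT replicate 1, Xlr4b without WT replicate 3, and Arnt2, C4bp-ps1, Gm10037, Mmp8 and Ngp without WT replicate 2. Of 159 ratios of means with 1 library left out, 1 moved beyond the spread between replicates (Armcx6, 17.5 without KO replicate 3). That spread was the SD of single libraries carried to the ratio, and leaving out a library shifts a group mean by less than its SD. Without a WT library no ratio could move beyond it, and without a KO library only one with a wide KO spread. The count therefore does not show that the ratios are stable. By over 1.5 times, the ratio moved in 6 of the 27 genes: Armcx6, Cbr3, Gm12942, Kcnf1, Mum1l1 and Ncs1. Prima1, Gm12942 and 4930592A05Rik had no ratio, and were not counted, without the only KO library where each was above 0. Across all genes the authors' deposited table called 998 of 9204 (1328 at a q below 0.1), whereas limma called 434, 427 with a pseudocount of 0.1, 247 over all genes above 0 and 383 over genes with a mean of at least 1 FPKM; with 1 library left out it called 20 (without WT replicate 2) to 292 (without WT replicate 3). The cause was not tested. Of 151 tested genes of the lists, the authors' deposited table called 41 and limma 17, all 17 among the 41. Leaving out 1 library, added after the data were seen, moved the ratio of means by over 1.5 times or turned it round in 7 of 55 called genes of the lists, families and neighbours (Actc1, Xirp1, Mybph, Gamt, S100a8, S100a9 and Postn). Depth limits the 7 genes with 10 or fewer WT steps most. The planned search for HDAC3 peaks near the genes was not run, since gene positions on mm9 were not given.

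Libraries with the same replicate number did not deviate together (correlations of -0.00285, 0.0473 and 0.0487 over the tested genes). The labels do not say whether the numbers pair the libraries, and these correlations cannot decide it. With the replicate number as a block, limma called 52 genes, 34 higher and 18 lower in KO.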

Other observations

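Other lists of known genes held calls in both directions, to be read against 5.90% of all tested genes higher and 4.94% lower in KO. Of 16 genes of the HDAC3 corepressor complex, all tested, 2 rose and 2 fell in the authors' deposited table: Tbl1x and Tbl1xr1, which encode subunits that bind the corepressors, rose to 9.92 ± 0.409 and 18.2 ± 2.55 FPKM in KO, against 6.2 ± 0.609 and 10.5 ± 0.449 FPKM in WT. Beside Hdac3, the repressor gene Bcl6 fell to 14.2 ± 1.24 FPKM in KO, against 20.9 ± 5.02 FPKM in WT. Of 17 myogenic and satellite cell genes, 12 were tested, of which 4 rose and 2 fell. Myog, a transcription factor of muscle differentiation, rose to 4.67 ± 1.11 FPKM in KO, against 1.87 ± 0.907 FPKM in WT, as did Des (960 ± 120 FPKM in KO and 499 ± 111 FPKM in WT), Sdc4 (26.2 ± 8.25 FPKM in KO and 15.1 ± 2.11 FPKM in WT) and Itga7 (22.6 ± 3.04 FPKM in KO and 16 ± 4.38 FPKM in WT). Eya1, a cofactor of myogenic transcription, fell to 3.7 ± 0.263 FPKM in KO, against 8.56 ± 1.47 FPKM in WT, and Cdh15 to 1.72 ± 0.422 FPKM in KO against 3.45 ± 1.19 FPKM in WT. Of 9 tested developmental and cardiac sarcomere genes, 3 rose and 1 fell. Mybph, Csrp3 and Xirp1 rose to 42.1 ± 28.2, 309 ± 205 and 65 ± 42.4 FPKM in KO, against 4.92 ± 4.61, 95.3 ± 16.5 and 47.2 ± 22 FPKM in WT. Actc1, cardiac actin, fell to 14.2 ± 5.87 FPKM in KO, against 131 ± 140 FPKM in WT, and of these 4 limma called Mybph alone. Single libraries carried much of these values: without WT replicate 1 the WT mean of Actc1 was 50.5 FPKM and that of Mybph 2.26 FPKM, without KO replicate 2 the KO mean of Mybph was 25.8 FPKM, and without KO replicate 3 that of Xirp1 was 45.8 FPKM, below its WT mean of 47.2 FPKM. Of 4 tested creatine genes, 1 fell, Gamt, whose KO mean was 0.807 FPKM, or 0.165 FPKM without KO replicate 2, against 5.49 FPKM in WT.

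Of 15 tested fibroblast and matrix genes, 0 rose and 5 fell (0% and 33.3%, against 5.90% and 4.94% of all tested genes): the collagen genes Col1a1 (26 ± 13.7 FPKM in KO, 45.7 ± 18.4 FPKM in WT) and Col1a2 (49.9 ± 18.9 FPKM in KO and 77.3 ± 8.66 FPKM in WT), Postn (19.1 ± 16.5 FPKM in KO and 27.3 ± 7.83 FPKM in WT), Thbs4 (18.1 ± 2.64 FPKM in KO and 33.4 ± 2.21 FPKM in WT) and Fmod (11.2 ± 1.98 FPKM in KO and 20.1 ± 7.82 FPKM in WT). Without KO replicate 2 the KO mean of Postn was 10.1 FPKM. At an unadjusted p below 0.05, 8 of the 15 were lower and 0 higher in KO in the authors' deposited table, and limma called Thbs4 alone. Of 10 tested smooth muscle and pericyte genes, Lmod1 and Des rose and Abcc9 fell. Of 4 tested cartilage and bone genes Col9a1 rose and Alpl fell, and the 1 tested epithelial gene, Trp63, rose. Of the genes named in these lists, limma also called Hdac3, Tbl1x, Tbl1xr1, Des, Eya1, Lmod1, Col9a1 and Gamt. For macrophage and dendritic cell, lymphocyte, erythroid and adipocyte markers, 0 of 14, 1, 7 and 8 tested genes were called. At an unadjusted p below 0.05 the authors' deposited table had 1 higher and 2 lower for macrophage markers, 1 higher and 1 lower for adipocyte markers and 0 for the others, and limma called 0 in each list, also unadjusted.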
